A study of Mus musculus with 12 samples.

Results

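Expression of 5 genes, Pcp4l1, Tff3, Klhl13, Camk1d and Rpgrip1, was followed in the livers of 12 mice. The genes were chosen by their array values: each read higher in RXRα-deficient than in wild type livers on at least 1 diet. They stand for 10 of the 22690 probe sets of the array and for 5 of 12393 genes with a symbol of their own. Reading higher in this sense set no minimum size, and 9103 genes (73.5%) met it, so the 5 are a selection and not all genes of that kind. The genotype values below therefore describe how the genes were picked and carry no test. The choice also does not hold on both diets for every gene: Rpgrip1 read lower in deficient livers on the normal diet.

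The mice were males of 12 weeks on a C57BL/6 background. Of 4 groups with 3 mice each, KO_RA and WT_RA ate a diet with 150 mg/kg all-trans retinoic acid (RA) for 7 days, and KO and WT ate a normal diet. KO_RA and KO mice had lost the fourth exon of Rxra in hepatocytes through a Cre recombinase driven by the albumin promoter, whereas WT_RA and WT mice were wild type. Other liver cells of the KO mice keep the receptor, and their hepatocytes still make a shortened RXRα with the ligand-binding domain but no DNA-binding domain. RNA of whole liver was measured, 1 array per mouse, and values are log2 RMA signals, so that a difference of 1 is a 2-fold change. In RNA of whole tissue, more cells of a type and more RNA per cell cannot be told apart.

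RXRα is the nuclear receptor with which the receptors for RA, fatty acids, bile acids, oxysterols and xenobiotics pair before they bind DNA, and it is abundant in hepatocytes. Its partners recognise repeats of a short half-site in DNA, so hepatocytes without the DNA-binding form of RXRα lose a component that these receptors share. None of the 5 genes belongs to the classical lipid pathways of this receptor. Pcp4l1 encodes a small relative of the calmodulin-binding protein PCP4 and is known from brain. Tff3 encodes a trefoil peptide, which goblet cells secrete with mucins and which protects and repairs epithelia. Klhl13 encodes a BTB-Kelch protein that brings substrates to the CUL3 ubiquitin ligase and is known from cell division in human cells. Camk1d encodes a calcium/calmodulin-dependent protein kinase. Rpgrip1 encodes a protein of the photoreceptor connecting cilium that anchors RPGR, and its loss causes retinal degeneration.

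Array medians lay between 6.26 and 6.35, and rank correlations within groups between 0.978 and 0.994. The arrays WT_RA 3 and KO 1 stood apart, as the Actb 3' control shows: it read 9.40 and 9.12 on them, against 12.13 to 12.93 on the other arrays. Of the other Actb probe sets, one was also low, at 8.73 and 8.77, against 12.26 to 12.89. Another was not, at 9.95 and 9.94, against 9.37 to 9.84. Genotype differences without both arrays are given for each gene below. The targeted gene Rxra read 10.91, 10.76 and 10.85 in KO_RA, against 10.49, 10.20 and 9.997 in WT_RA, and 10.11, 10.66 and 10.84 in KO, against 10.82, 10.51 and 10.37 in WT. The sources used here do not place its probe sets relative to the deleted exon, so this signal is no check of the deletion or of a label. Albumin (Alb), which defines hepatocytes, averaged 13.88 in KO_RA, 13.96 in WT_RA, 13.91 in KO and 14.01 in WT, near the highest value of any array, 14.4.

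Promoter sequences, 250 bases before to 50 after an annotated start, were read from RefSeq (GRCm38.p6) for 4 of the 5 genes, and Tff3 was not matched. They are shown because RXRα and its partners recognise AGGTCA or GGGTCA half-sites, and because the genes were chosen on values in livers whose hepatocytes lack its DNA-binding form. Half-sites and the TATAAA box were searched on both strands and are in capitals. Of 32851 promoter windows of this length 16.3% held AGGTCA, 13.7% GGGTCA, 27.5% either and 13.6% TATAAA.
Pcp4l1: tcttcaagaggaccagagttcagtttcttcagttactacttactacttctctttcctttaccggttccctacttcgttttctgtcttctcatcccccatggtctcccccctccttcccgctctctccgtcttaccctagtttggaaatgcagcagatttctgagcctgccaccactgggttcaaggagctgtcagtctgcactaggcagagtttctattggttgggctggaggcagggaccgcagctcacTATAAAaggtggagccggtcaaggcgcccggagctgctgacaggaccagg
Klhl13: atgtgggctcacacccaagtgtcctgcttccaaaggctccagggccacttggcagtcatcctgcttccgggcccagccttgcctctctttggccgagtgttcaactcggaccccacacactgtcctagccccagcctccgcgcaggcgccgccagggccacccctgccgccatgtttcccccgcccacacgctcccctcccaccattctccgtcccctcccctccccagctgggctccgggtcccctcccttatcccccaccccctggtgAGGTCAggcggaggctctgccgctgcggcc
Camk1d: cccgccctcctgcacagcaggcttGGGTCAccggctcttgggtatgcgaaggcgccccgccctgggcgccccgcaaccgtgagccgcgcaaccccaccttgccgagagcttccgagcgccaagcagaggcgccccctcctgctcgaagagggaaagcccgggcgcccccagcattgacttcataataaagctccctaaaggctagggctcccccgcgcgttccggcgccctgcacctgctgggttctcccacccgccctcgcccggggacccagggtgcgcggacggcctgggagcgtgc
Rpgrip1: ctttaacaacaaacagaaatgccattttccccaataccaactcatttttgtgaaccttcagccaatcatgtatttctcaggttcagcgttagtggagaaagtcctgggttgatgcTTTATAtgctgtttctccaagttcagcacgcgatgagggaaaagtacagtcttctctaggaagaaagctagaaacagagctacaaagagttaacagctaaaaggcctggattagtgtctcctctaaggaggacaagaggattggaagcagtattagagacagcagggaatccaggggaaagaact
The window of Pcp4l1 (chr1:171196219-171196518, minus strand) held no half-site and TATAAA at the annotated start itself. That of Klhl13 (chrX:23365033-23365332, minus strand) held AGGTCA 21 bases into the transcript. The same site lay in 1 overlapping window, and the other 3 of its 5 annotated windows held none. That of Camk1d (chr2:5714713-5715012, minus strand) held GGGTCA 226 bases before the start and 29 CpG, against a median of 7 over all windows, and its second window held no half-site. That of Rpgrip1 (chr14:52110653-52110952, plus strand) held no half-site and TATAAA on the opposite strand, 135 bases before the start. The 4 windows thus share no motif of those searched, and a match marks letters only, not binding.

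Pcp4l1 gave the widest separation between genotypes under RA among the 5 genes. It read 9.32, 8.67 and 9.36 in KO_RA, against 6.41, 6.88 and 6.51 in WT_RA. On the normal diet it read 8.14, 8.53 and 9.03 in KO, against 7.60, 6.04 and 6.53 in WT. Every array of RXRα-deficient livers was above every wild type array of the same diet, by at least 1.79 log2 units under RA and by at least 0.53 on the normal diet. The difference was 2.52 ± 0.35 under RA (SE, n = 3), a 5.73-fold higher signal, and 1.84 ± 0.35 on the normal diet, a 3.58-fold higher signal. WT was the most variable group of this gene, with an SD of 0.80 and WT 1 as its highest array, and without WT 1 the difference on the normal diet was 2.28. Without WT_RA 3 and KO 1 the differences of Pcp4l1 were 2.47 under RA and 2.05 on the normal diet. KO_RA overlapped KO, and WT_RA overlapped WT, so the diets were not separated within either genotype. A single probe set represented the gene.

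Tff3 was likewise higher in deficient livers on both diets, and its spread was larger there. It read 8.20, 10.10 and 9.18 in KO_RA, against 7.31, 7.15 and 6.94 in WT_RA. On the normal diet the values were 8.18, 9.40 and 8.32 in KO, against 7.22, 6.95 and 7.22 in WT. The 6 wild type arrays thus lay within a narrow band on both diets, while the 6 deficient arrays lay between 8.18 and 10.10. The SD was 0.95 in KO_RA and 0.18 in WT_RA, and 0.67 in KO and 0.15 in WT. The difference was 2.02 ± 0.41 under RA, a 4.07-fold higher signal, and 1.50 ± 0.41 on the normal diet, a 2.83-fold higher signal (SE, n = 3). Its size depended on single livers: it was 1.55 under RA without KO_RA 2 and 1.12 on the normal diet without KO 2. Without WT_RA 3 and KO 1 the differences of Tff3 were 1.93 under RA and 1.73 on the normal diet. As with Pcp4l1, 1 probe set represented the gene and the diets overlapped within each genotype.

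Klhl13 was higher in deficient livers on both diets, by more on the normal diet than under RA. Its brighter probe set read 6.58, 6.16 and 6.64 in KO_RA, against 5.95, 5.30 and 5.37 in WT_RA. It read 6.68, 6.47 and 6.91 in KO, against 5.23, 5.03 and 5.45 in WT. The groups were separated by 1.02 log2 units on the normal diet and by only 0.21 under RA, where WT_RA 1 came nearest to the deficient arrays. The difference was 0.92 ± 0.19 under RA (SE, n = 3), a 1.89-fold higher signal, and 1.45 ± 0.19 on the normal diet, a 2.74-fold higher signal. Without WT_RA 3 and KO 1 these differences of Klhl13 were 0.835 and 1.45. A second, dimmer probe set pointed the same way on both diets, with 4.82, 4.57 and 5.04 in KO_RA, against 4.49, 4.11 and 4.42 in WT_RA. On the normal diet this probe set read 5.34, 5.08 and 5.23 in KO, against 4.45, 4.45 and 4.58 in WT. Its differences were 0.47 ± 0.13 under RA and 0.72 ± 0.13 on the normal diet, and it reached the lower quartile of its array on 4 of 12 arrays. Across the 12 arrays the probe sets of Klhl13 correlated at r = 0.87, and at r = 0.75 after the group means were subtracted.

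Camk1d separated the genotypes under RA and not on the normal diet. The brighter probe set read 8.22, 7.87 and 7.54 in KO_RA, against 6.13, 6.57 and 5.82 in WT_RA. It read 6.90, 7.80 and 8.38 in KO, against 6.99, 7.29 and 7.37 in WT. Under RA the nearest arrays of both genotypes were 0.96 apart, whereas on the normal diet KO 1 lay below all WT arrays and the groups overlapped. The difference was 1.70 ± 0.32 under RA (SE, n = 3), a 3.25-fold higher signal, and 0.48 ± 0.32 on the normal diet. That second value rested on single arrays: it was 0.88 without KO 1, an array that stood apart, and 0.14 without KO 3. Without WT_RA 3 and KO 1 the difference of Camk1d under RA was 1.52. The under-RA value combined a level in WT_RA that was 1.04 below WT, with no overlap, and a level in KO_RA that was 0.18 above KO, with overlap. A dimmer probe set gave 1.60 ± 0.35 under RA and 0.45 ± 0.35 on the normal diet. The probe sets of Camk1d followed each other at r = 0.94 over the 12 arrays, and at r = 0.93 after group means were subtracted.

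Rpgrip1 was crossed: it read higher in deficient livers under RA and lower on the normal diet. Its bright probe set read 9.08, 9.14 and 8.84 in KO_RA, against 8.35, 5.78 and 6.58 in WT_RA. On the normal diet it read 7.43, 6.36 and 6.23 in KO, against 9.40, 8.99 and 8.98 in WT. All arrays of KO_RA were above all of WT_RA, and all arrays of KO were below all of WT. The difference was 2.12 ± 0.51 under RA (SE, n = 3), a 4.34-fold higher signal, and -2.45 ± 0.51 on the normal diet, a 5.46-fold lower signal. Set by diet, the level in KO_RA was 2.35 above that in KO, and the level in WT_RA was 2.22 below that in WT, in both cases without overlap. WT_RA was by far the most variable group, with an SD of 1.31 against 0.16 in KO_RA, and the difference under RA was 2.84 without WT_RA 1 and 1.55 without WT_RA 2. Both arrays that stood apart belong to the low groups, and without them the differences were 1.96 under RA and -2.83 on the normal diet. The other 3 Rpgrip1 probe sets lay below the lower quartile on all 12 arrays. Their differences were -0.10, -0.04 and -0.09 under RA and 0.20, -0.09 and 0.13 on the normal diet. None of the 3 showed the crossed pattern, which thus rests on 1 probe set. The sources used here do not say where on the transcripts these probe sets lie.

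**Figure D1:**
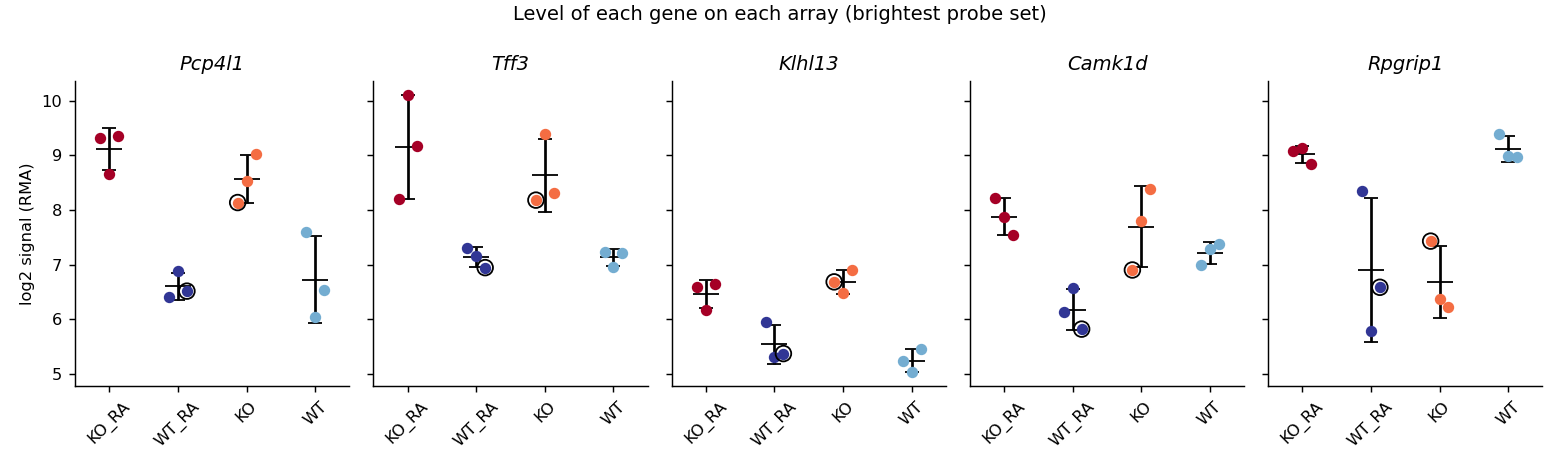
Log2 RMA signal of the brightest probe set of each gene on each of the 12 arrays, and, as bars, the means of the groups with their SDs (n = 3). Circled points are WT_RA 3 and KO 1. Pcp4l1, Tff3 and Klhl13 are higher in KO_RA than WT_RA and in KO than WT without overlap, Camk1d only in KO_RA against WT_RA, and Rpgrip1 changes sides between the diets.

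**Figure D2:**
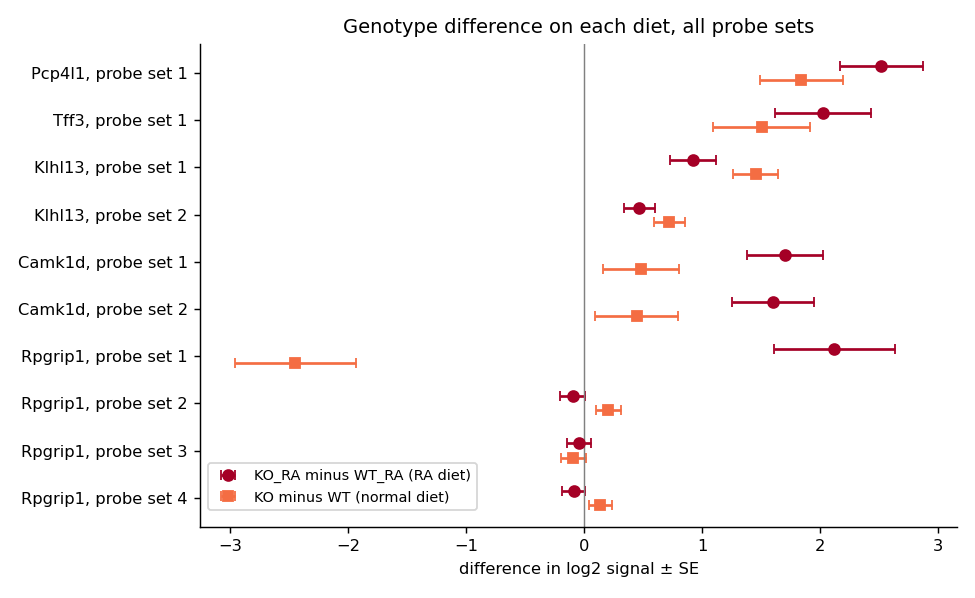
Difference between genotypes in log2 signal with its SE (n = 3 per group) for all 10 probe sets, under RA (circles) and on the normal diet (squares). Probe sets 1 and 2 of Klhl13 and of Camk1d lie on the same side of 0, while probe sets 2 to 4 of Rpgrip1 lie within 0.20 of 0 after rounding.

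Among all 12393 genes the 5 lay at or near the edges of the genotype differences on at least 1 diet, and they were picked on these values. Under RA, Pcp4l1 had the 4th highest difference, Rpgrip1 the 7th, Tff3 the 8th, Camk1d the 12th and Klhl13 the 70th. On the normal diet the ranks were 22 for Pcp4l1, 31 for Tff3, 36 for Klhl13 and 370 for Camk1d, and Rpgrip1 was 12390th, that is 4th from the lowest. Limma called all 5 genes higher in KO_RA than in WT_RA, where 0.928% of all genes were, and 2 of them, Pcp4l1 and Klhl13, higher in KO than in WT, where 0.484% were. It called Rpgrip1 lower in KO than in WT, where 0.831% of genes were, and none of the 5 lower under RA, where 3.03% were. The calls as higher restate the choice of the genes. That of Rpgrip1 as lower comes from the same genotype values and is no test either. All KO_RA arrays were above all WT_RA arrays for 5 of the 5, against 11.3% of all genes, and all KO arrays above all WT arrays for 3 of the 5, against 9.85%. Pcp4l1, Tff3 and Klhl13 were separated upward on both diets, as were 233 genes in all (1.88%). Ranked by the smaller of the differences on the 2 diets, Pcp4l1 was 5th, Tff3 6th and Klhl13 14th of these. The crossed pattern of Rpgrip1, down on the normal diet and up under RA without overlap, occurred in 66 genes (0.533%). Rpgrip1 had the largest smaller difference of these 66, followed by Atf5, a stress-response transcription factor gene named here after its values were seen, with 1.16 under RA and -0.85 on the normal diet.

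**Figure D3:**
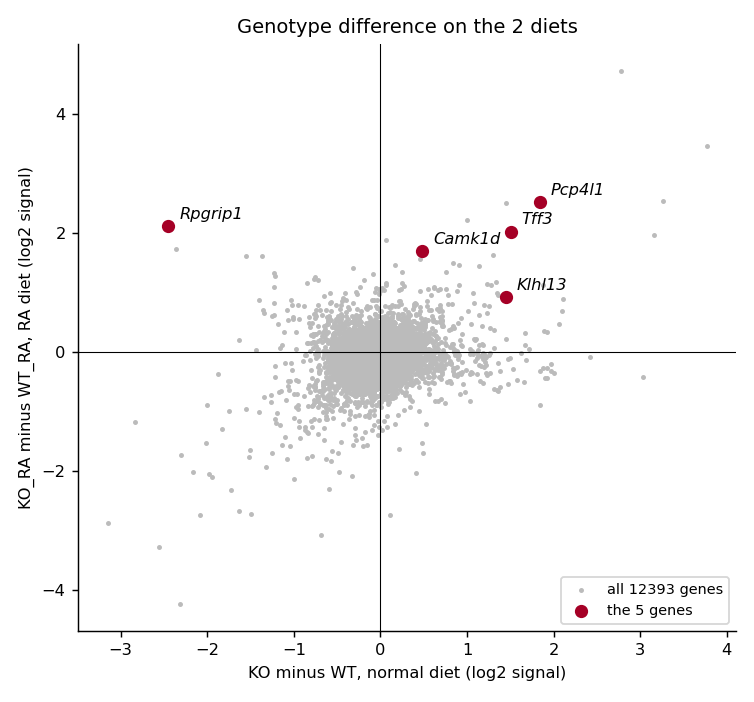
Genotype difference in log2 signal on the normal diet (horizontal axis) and under RA (vertical axis) for 12393 genes (grey) and the 5 genes (red). Pcp4l1, Tff3, Klhl13 and Camk1d lie at the upper right and Rpgrip1 at the upper left, at -2.45 and 2.12.

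The average effect of RA over both genotypes is the comparison that the choice of the genes did not use, because it is orthogonal to the genotype difference on either diet. It asks whether the RA diet moved these genes when KO_RA and WT_RA are set together against KO and WT. On their brightest probe sets none of the 5 genes passed, and none had an unadjusted p under 0.05. Limma called 182 genes higher (1.47%) and 108 lower (0.871%). The unadjusted threshold was reached by 1717 of the 12393 genes. With only 5 genes, a count of 0 does not set them apart from genes at large. Pcp4l1 averaged 7.86 on the RA diet and 7.65 on the normal diet, a difference of 0.21 (95% interval -0.32 to 0.75, limma adjusted p = 0.772). For Tff3 the means were 8.15 on the RA diet and 7.88 on the normal diet, a difference of 0.26 (interval -0.36 to 0.88, limma adjusted p = 0.751). The brighter probe set of Klhl13 gave a difference of 0.04 (-0.26 to 0.34, limma adjusted p = 0.933). Its second probe set gave -0.28 ± 0.09 (SE, limma adjusted p = 0.224 over all probe sets), with all KO_RA arrays below all KO arrays, and the mean of both gave -0.12, so the sign depended on the probe set. The brighter probe set of Camk1d averaged 7.03 on the RA diet and 7.45 on the normal diet, a difference of -0.43 (-0.92 to 0.06, limma adjusted p = 0.441). Its second probe set gave -0.04 ± 0.25 (SE, limma adjusted p = 0.966 over all probe sets), and the mean of both gave -0.23. Rpgrip1 differed by 0.06 (-0.71 to 0.84, limma adjusted p = 0.959), an average of 2.35 in deficient and -2.22 in wild type livers. In an exact permutation test of RA labels within genotype (400 arrangements, two-sided, smallest possible p 0.005), p was 0.48 for Pcp4l1, 0.535 for Tff3, 0.82 for Klhl13, 0.215 for Camk1d and 0.95 for Rpgrip1. With array weights, an alternative setting, Camk1d alone passed (-0.62, limma adjusted p = 0.0477, against 0.0477 to 0.725 over all alternatives).

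**Figure D4:**
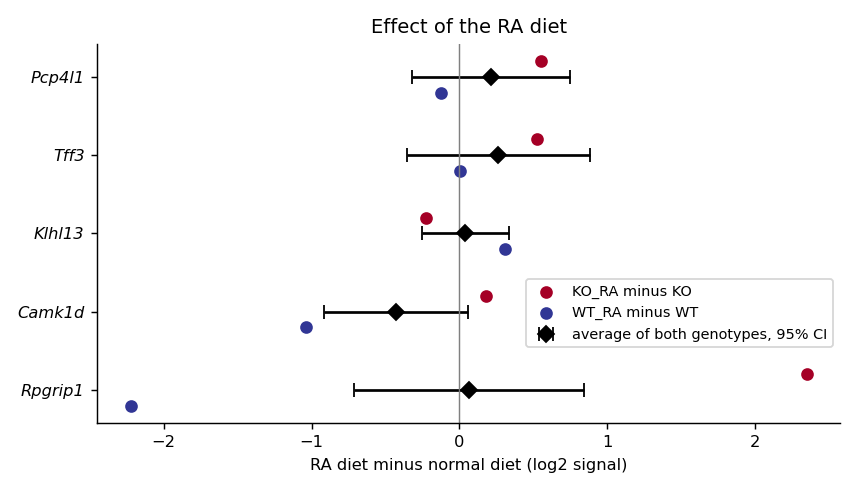
RA diet minus normal diet in log2 signal for the 5 genes: the average over both genotypes with its 95% interval (diamonds), KO_RA minus KO (red) and WT_RA minus WT (blue). All 5 intervals include 0, and the genotypes lie farthest apart for Rpgrip1, at 2.35 and -2.22.

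Over the 12 arrays, the 4 genes other than Rpgrip1 followed one another, with r from 0.58 between Klhl13 and Camk1d to 0.85 between Pcp4l1 and Klhl13. This likeness comes with their shared choice on genotype. After group means were subtracted, r among these 4 lay between -0.37 and 0.27, so within groups they did not rise and fall together. Rpgrip1 correlated with the others at -0.16 to 0.19 over the 12 arrays, and after group means at 0.50 with Klhl13 and -0.48 with Camk1d.

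The genes most like each member over the 12 arrays were sought among genes at or above the median signal. For Pcp4l1 these were Fndc4 (r = 0.92), which encodes a secreted anti-inflammatory factor, Pgrmc2 (0.92), a membrane heme-binding protein gene, and Cd164 (0.92), which encodes a sialomucin. All followed at smaller amplitude: Fndc4 was higher by 0.68 under RA and by 0.31 on the normal diet. For Tff3 they were Pla1a (0.88), a phosphatidylserine phospholipase gene, C1s1 (0.88), which encodes a complement protease, and Hlcs (0.86), which encodes the ligase that attaches biotin to carboxylases. Pla1a was higher by 0.81 under RA and by 0.79 on the normal diet. Klhl13 was followed by Gstt1 (0.92), a glutathione transferase gene, Spp2 (0.90), which encodes a secreted phosphoprotein, and Wdsub1 (0.90). Camk1d was followed by Lgals9 (0.93), which encodes galectin-9, Ercc2 (0.92), which encodes a helicase of DNA repair and transcription, and Fbxo6 (0.92), which encodes a ubiquitin ligase subunit for glycoproteins. The likeness of Camk1d with Lgals9 and Fbxo6 remained after group means were subtracted (r = 0.89 and 0.87). Lgals9 was higher by 0.68 under RA and by 0.01 on the normal diet. Rpgrip1 was followed by Ssbp3 (0.86), a DNA-binding protein gene, Chmp7 (0.85), an ESCRT-III component gene, and Aph1a (0.77), a γ-secretase subunit gene. Their differences were small, with 0.12 under RA and -0.15 on the normal diet for Ssbp3, and no gene matched the amplitude of Rpgrip1. After group means were subtracted, r also stayed at 0.74 for Klhl13 with Gstt1 and at 0.78 for Rpgrip1 with Ssbp3. It fell to 0.21 for Pcp4l1 with Cd164 and to 0.20 for Klhl13 with Wdsub1. These correlations describe 12 arrays in 4 groups, and the groups supply part of each.

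Genes that work with the members were compared in lists that left the members out. Of 19 measured calmodulin and CaM kinase genes, which are relatives or partners of Pcp4l1 and Camk1d, limma called none in either genotype comparison (1 had an unadjusted p under 0.05 under RA, 0 on the normal diet). Their median difference was 0.04 under RA and -0.02 on the normal diet, beside 0.01 and 0.02 over all genes. Camk1, a close relative of Camk1d, differed by 0.32 ± 0.16 under RA (SE, n = 3, limma adjusted p = 0.327) and by -0.10 on the normal diet, and Pcp4, the namesake of Pcp4l1, by 0.04 and 0.06. For the RA average 2 of the 19 rose, Mylk, the myosin light chain kinase gene (0.38 ± 0.06, limma adjusted p = 0.0116), and Dapk1, a death-associated protein kinase gene (0.65 ± 0.14, limma adjusted p = 0.0286). Without WT_RA 3 and KO 1 only Mylk did (limma adjusted p = 0.0399 for Mylk and 0.063 for Dapk1).

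Of 19 trefoil and mucosal secretory genes limma called none higher in either genotype comparison (1 had an unadjusted p under 0.05 and a positive difference on each diet), and Pigr, the receptor gene that carries immunoglobulin A across epithelia, was lower in KO_RA than in WT_RA (-0.51 ± 0.09, SE, n = 3, limma adjusted p = 0.0124). The other trefoil genes did not follow Tff3: Tff1 differed by 0.23 ± 0.10 under RA (limma adjusted p = 0.244) and by 0.05 on the normal diet, and Tff2 by 0.17 and 0.15. None of 22 measured genes of CUL3 and its adaptors passed in limma in any comparison, 5 having an unadjusted p under 0.05 in each. Among them were Klhl9, the partner of Klhl13 in human cells, at -0.03 under RA and -0.19 on the normal diet, and Cul3 itself at -0.02 and -0.06. Without WT_RA 3 and KO 1, Klhl22, another adaptor, was lower in KO than in WT (limma adjusted p = 0.0209, against 0.112 over all arrays). None of 14 measured genes of the photoreceptor cilium and the ciliary transition zone passed in limma (unadjusted p under 0.05 for 2 under RA, 3 on the normal diet and 2 for the RA average), and 12 of the 26 listed had no probe set with a symbol of their own. Rpgr, the binding partner of Rpgrip1, averaged 3.29 in KO_RA, 3.38 in WT_RA, 3.39 in KO and 3.37 in WT, near the lowest value of the arrays, 2.85. In these lists 0 to 2 members passed in a comparison, beside the shares of all genes given above. At an unadjusted p under 0.05 the count over all 12393 genes was 1717 for the RA average. It was not taken for the genotype comparisons. List counts at that threshold, here and for the markers below, therefore have no background beside them in the genotype comparisons.

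Because Tff3 is an epithelial gene, markers of the cell types that a liver sample could hold were read beside the 5 genes. Summed over 14 measured bile duct markers, the linear signal was 926 to 1020 in KO_RA, against 1120 to 1170 in WT_RA, and 1010 to 1150 in KO, against 906 to 1100 in WT, so it was not higher in deficient livers under RA. Such a sum is weighted to bright markers, here Anxa4 (8.79 in KO_RA and 8.92 in WT_RA). It also depends on single markers with large differences, under RA Slc10a2 (-2.67) and Prom1 (-1.40), whereas 8 of the 14 had a positive difference. The lower sum in KO_RA is therefore no measure of bile duct cell content. Slc10a2 had the largest difference of the list on both diets, without being called. It averaged 4.38 in KO_RA, against 7.04 in WT_RA, and 4.88 in KO, against 6.52 in WT. The bile duct markers Krt19, Epcam and Sox9 differed by -0.09, 0.17 and -0.01 under RA and by 0.09, -0.13 and 0.09 on the normal diet, none of them called, and Cftr and Ehf lay below the lower quartile on all arrays. Other bile duct markers read higher in deficient livers without being called, with Krt23 at 0.54 and Cldn4 at 0.34 on the normal diet and Cd24a at 0.54 under RA. Of the 14, 3 had an unadjusted p under 0.05 under RA, 1 of them higher, and 2 on the normal diet, both higher. Between genotypes limma called 1, Prom1, which averaged 4.75 in KO_RA, against 6.15 in WT_RA, and 4.77 in KO, against 4.80 in WT. Over 10 measured intestinal and pancreatic markers the sum was 1070 to 1550 in KO_RA, against 1250 to 1690 in WT_RA, and 2000 to 2290 in KO, against 1870 to 2250 in WT. Fabp2, an enterocyte fatty acid-binding protein gene, was called lower in KO_RA than in WT_RA, and Vil1, Lct and Cpa1 of this list lay below the lower quartile on all arrays. Kupffer cell and macrophage markers did move with genotype on the normal diet. Summed over 15 measured genes they were 3750 to 4350 in KO_RA, against 3770 to 7000 in WT_RA, and 3180 to 15200 in KO, against 2360 to 3040 in WT. All 15 had a positive difference on the normal diet and 1 of 15 under RA, none was called in limma over all arrays although 14 had an unadjusted p under 0.05 on the normal diet, and 13 were called on the normal diet without WT_RA 3 and KO 1. Group means were then subtracted from the log2 signals, and the deviations were averaged over the 15 genes. This average, which is not the linear sum, correlated over the 12 arrays at r = 0.12 with Pcp4l1, 0.46 with Tff3 and -0.29 with Klhl13. For Camk1d it was 0.30 and for Rpgrip1 -0.45. Other lists reached similar or larger sizes. The hepatocyte average gave 0.55 with Tff3, and the stellate cell average 0.54 with Pcp4l1. The intestinal and pancreatic average gave 0.61 with Klhl13 and -0.57 with Tff3. The part of macrophages in the differences of Pcp4l1, Tff3 and Klhl13 on the normal diet was not tested. Over 12 hepatocyte markers the sum was 127000 to 137000 in KO_RA, against 119000 to 134000 in WT_RA, and 115000 to 126000 in KO, against 129000 to 137000 in WT.

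Other lists were read in the same way. Over 13 endothelial markers the sum was 2360 to 2470 in KO_RA, against 2180 to 2290 in WT_RA, and 2550 to 2960 in KO, against 2030 to 2510 in WT. It was higher in deficient livers on both diets without overlap, but by a narrow gap. The nearest arrays were KO_RA 3 at 2363 and WT_RA 2 at 2292 under RA. On the normal diet they were KO 1, which stood apart, at 2554 and WT 1 at 2515. Single markers did not all follow the sum: 8 of the 13 had a positive difference under RA (median 0.06) and 10 on the normal diet (median 0.27). Under RA the bright marker Stab2 differed by 0.53, whereas Clec4g, as bright, differed by -0.26. Limma called none of these 13 in either genotype comparison (7 had an unadjusted p under 0.05 on the normal diet and 3 under RA), but Cdh5 and Tek, endothelial junction and receptor genes, were called higher in KO without WT_RA 3 and KO 1. Group means were again subtracted from the log2 signals, and the deviations were averaged over the 13 endothelial markers. This average correlated over the 12 arrays at r = 0.68 with Pcp4l1, 0.39 with Tff3, -0.07 with Klhl13, 0.49 with Camk1d and -0.38 with Rpgrip1. The part of endothelial cells in the values of the 5 genes was not tested. The sum over 14 cell cycle genes, read beside Klhl13, was 991 to 1020 in KO_RA, against 1040 to 1360 in WT_RA, and 1100 to 1280 in KO, against 966 to 1020 in WT, and limma called none (5 had an unadjusted p under 0.05 on the normal diet, 2 under RA). Among 13 stellate cell, 12 lymphocyte and 12 neutrophil markers none was called between genotypes either, with 2, 3 and 1 at an unadjusted p under 0.05 on the normal diet and 1, 0 and 0 under RA. Of 15 female-biased liver genes Sult1e1, an estrogen sulfotransferase gene, was higher in deficient livers on both diets (3.46 ± 0.61 under RA, limma adjusted p = 0.0101, and 3.77 ± 0.61 on the normal diet, limma adjusted p = 0.0135). Cyp2b10 and Prom1 of that list were called lower in KO_RA than in WT_RA. Of 17 male-biased genes Ugt2b1 and Obp2a were called lower and Susd4 higher in KO_RA than in WT_RA, and Elovl3 and Ugt2b1 lower in KO than in WT.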

How the data were processed

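Liver RNA of 12 mice was hybridised to Affymetrix mouse arrays, 1 per mouse, in 4 groups of 3 that the titles name as biological replicates. The authors deposited log2 values, 1 per probe set and array; the submitters' processing notes list RMA, which normalizes between arrays, and Partek 6.11, whereas the paper's methods name MAS5 for the study's own analysis. Scanner files were not used here. Values ran from 2.85 to 14.4, and the number of arrays limits precision.

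Of 22690 probe sets, 64 were controls and 20380 had 1 symbol, which gave 12393 genes, and of several probe sets for a gene the one with the highest mean was taken. All 12 arrays entered a linear model of the 4 group means (limma 3.58.1, R 4.3.3, two-sided, 8 residual degrees of freedom), with Benjamini-Hochberg adjustment over all genes and calls at an adjusted p under 0.05. SE of genotype differences come from the same model over all probe sets. The fit was tested on simulated data. The paper names no model.

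The 5 genes, the 15 lists and the tests were chosen with earlier results of these data known. As genotype differences chose the 5 genes, limma's genotype calls for them rest on the values that chose them and are given as counts without p-values. RA effects within 1 genotype and their interaction were not tested for them. Named besides the 5 genes are the 3 genes with the most similar profile for each, called list genes and defining markers. Alternatives left out arrays or changed the block, normalization, filter, probe set, prior and weights.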

Additional observations from a re-analysis of the deposited data

Results flagged for a closer look

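Rpgrip1 is singled out because RA went with opposite changes in the 2 genotypes. In RXRα-deficient livers all 3 KO_RA arrays read above all 3 KO arrays, by 2.35 log2 units on average. In wild type livers all 3 WT_RA arrays read below all 3 WT arrays, by an average difference of -2.22. The difference between these effects was not tested, because Rpgrip1 was chosen on the genotype differences of the same arrays, and it was seen on 1 of its 4 probe sets. No test for an outlying array within a group was run, since each group holds 3.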

How the results depend on the processing

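Differences between genotypes kept their sign for all 5 genes on both diets in each of 19 alternatives. Several of these could not change a difference: leaving out an array of the other diet, the replicate block, the low filter and all probe sets. Where the genotypes did not overlap, leaving out a single array could not change the sign either. With all probe sets of a gene averaged, that of Klhl13 on the normal diet was 1.09 and those of Rpgrip1 were 0.47 under RA and -0.55 on the normal diet, as the mean then includes its 3 dim probe sets. The RA average of Camk1d passed only with array weights (-0.62, limma adjusted p = 0.0477, range over 21 alternatives 0.0477 to 0.725), and the other 4 genes passed in none of 21.

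Counts over all genes depended on single arrays. The RA average called 290 genes, 151 to 288 with 1 array left out (172 without WT 2, 177 without WT 3, 151 without WT_RA 2, 188 without KO_RA 2), and 1010 with array weights. Genes higher in KO_RA than WT_RA numbered 115, 39 to 149 with 1 array left out (68, 58 and 43 without WT_RA 1, 2 or 3, and 39, 74 and 50 without KO_RA 1, 2 or 3), 76 without WT_RA 3 and KO 1 and 307 with array weights. Genes higher in KO than WT numbered 60, 20 to 141 with 1 array left out (28, 20 and 39 without WT 1, 2 or 3, and 141, 30 and 29 without KO 1, 2 or 3), 165 without WT_RA 3 and KO 1 and 935 with array weights.

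The titles number replicates 1 to 3 in each group and do not say what a number stands for. Same-numbered arrays deviated from their group means together at r over 0.1 in 5 of 18 pairs (range -0.46 to 0.27). Pairs with different numbers were not compared, so whether arrays of the same number shared a batch was not tested. With the replicate block, 227 genes were called for the RA average, 97 higher in KO_RA than WT_RA and 34 higher in KO than WT. With this block none of the 5 genes passed for the RA average, and their genotype calls were not rerun.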
